A study of Mus musculus with 90 samples.

Results

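The forkhead family was followed in mouse J1 embryonic stem (ES) cells as they differentiated in culture. The members were all genes whose name in the deposited tables is Fox followed by 1 letter and a number, without antisense or opposite-strand entries. This gave 44 genes of the 24984 listed for neural progenitor (NPC) cultures and the same 44 of the 24961 listed for embryoid bodies (EB). These tables hold 4 lines that differ in CBX7, a chromobox protein of Polycomb repressive complex 1: CBX7-CaPS (written CaPS), CBX7-mCaPS (mCaPS), CBX7 KO (KO) and WT J1 cells (WT). CaPS names the compaction and phase separation region known from the related protein CBX2, and mCaPS its mutated form. One more line, CBX7-CaPS-R (CaPS-R), is in tables of its own, and the labels do not explain the R.

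All lines grew on mouse embryonic fibroblast feeder cells, which were removed before differentiation. For NPC cultures, cells were aggregated without leukaemia inhibitory factor for 4 days and then received 5 uM retinoic acid, and RNA was taken on days 0, 6 and 8. For EB cultures, cells hung in drops for 4 days and were then pooled in suspension, and RNA was taken on days 0, 6 and 10. Each line, culture and day has 3 RNA-seq libraries, 90 in all. Nothing in the labels says that the 3 came from separate cultures, so the p-values measure the spread between these libraries, which may be technical.

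Forkhead proteins are transcription factors that bind DNA through a shared winged-helix domain. FOXD3 and FOXH1 act in the pluripotent epiblast, FOXH1 as the DNA-binding partner of SMAD proteins downstream of Nodal. FOXA proteins open chromatin in endoderm and floor plate, FOXC and FOXF proteins act in mesoderm, and FOXM1, FOXK and FOXO proteins serve the cell cycle and metabolism of many cells. Polycomb complexes are known to occupy many developmental genes with CpG-rich promoters in ES cells, and genes of this family are among the well known examples. No Polycomb binding was measured here.

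Promoter sequence from RefSeq (GRCm38.p6, the build called mm10 in the submitters' notes) was matched for 28 of the 44 members. In the 250 bases before the RefSeq start, the members held a median of 16.5 CpG dinucleotides, against 6 over the 32851 promoters of the same table, and 21 of the 28 members lay above that median. For Foxd4, Foxe3 and Foxo3 that start lay 293, 54 and 47 bases from the start of the counted gene. Sequences are printed for 5 members because these genes carry the contrasts described further on: Foxd3 and Foxi3 fell in NPC cultures, Foxa1 and Foxc1 rose, and Foxr2, a germ line gene with few CpG, fell. Each gives the 150 bases before the gene start, 5′ to 3′ on the strand of the gene, with every CpG in capitals.
Foxd3, chr4:99656149-99656298, plus strand: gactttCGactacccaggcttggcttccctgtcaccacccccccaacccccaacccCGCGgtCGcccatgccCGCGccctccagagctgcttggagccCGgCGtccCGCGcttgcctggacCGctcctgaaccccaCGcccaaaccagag
Foxi3, chr6:70956456-70956605, plus strand: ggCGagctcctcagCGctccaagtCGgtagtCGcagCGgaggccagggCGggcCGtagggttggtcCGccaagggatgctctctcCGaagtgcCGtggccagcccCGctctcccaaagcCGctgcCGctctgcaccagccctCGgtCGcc
Foxa1, chr12:57546112-57546261, minus strand: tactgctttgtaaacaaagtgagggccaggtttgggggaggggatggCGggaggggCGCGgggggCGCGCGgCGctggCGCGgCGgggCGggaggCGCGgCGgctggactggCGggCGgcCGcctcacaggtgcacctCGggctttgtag
Foxc1, chr13:31806496-31806645, plus strand: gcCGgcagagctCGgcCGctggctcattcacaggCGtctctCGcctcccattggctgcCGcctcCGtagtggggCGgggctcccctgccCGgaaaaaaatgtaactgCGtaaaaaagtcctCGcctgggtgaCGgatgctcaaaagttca
Foxr2, chrX:153118638-153118787, plus strand: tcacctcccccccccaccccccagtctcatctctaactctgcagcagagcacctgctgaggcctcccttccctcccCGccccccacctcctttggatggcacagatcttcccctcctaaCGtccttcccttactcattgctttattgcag
The 150 bases held 12 CpG at Foxd3, 15 at Foxi3, 18 at Foxa1, 12 at Foxc1 and 2 at Foxr2. The forkhead core motif TGTTTAC or its reverse complement GTAAACA was present in the 250 bases of 1 of the 28 members, Foxa1, against 3.17% of all promoters. A nuclear receptor motif, AGGTCA or its complement TGACCT, was present in 3 members, Foxe3, Foxi2 and Foxk2, against 14.0% of all promoters. These are matches of letters and not measured binding sites, and the 5 members printed were picked after their values were seen.

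Total counts per library ranged from 11.8 M to 59.3 M for NPC and from 10.6 M to 55.9 M for EB, and in the CaPS-R tables from 11.7 M to 29.1 M for NPC and from 11 M to 110.0 M for EB. One ribosomal RNA precursor, Rn45s, took between 2.7% and 88.7% of the EB counts and between 4.2% and 50.3% of the NPC counts. Of the EB libraries, replicate 1 of WT and of CaPS on every day (6 libraries, called numbered 1 from here on) differed from the other 30 in the files: of their gene counts from 1 to 20, between 42.1% and 43.5% were even numbers, against 73.5% to 94.1% elsewhere. EB tests that compare these libraries were therefore also run without the 6. The EB levels, detection counts and marker sums hold all libraries. In the line labelled KO, Cbx7 was counted at 112 to 137 CPM (counts over the library size after edgeR's TMM scaling) on NPC day 0, against 157 to 191 CPM in WT, and at 87.8 to 111 CPM on EB day 0, against 76.8 to 132 CPM in WT. The gene counts do not check the KO label.

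Most of the family was detected. In NPC cultures 37 of the 44 members reached a mean of 1 CPM in at least 1 group, and 39 did in EB. The members below 1 CPM in every group were Foxb2, Foxi1, Foxi2 and Foxn1 in both cultures, with Foxd4, Foxf2 and Foxs1 in NPC and Foxe3 in EB. After the filter on low counts, 41 members were tested in NPC and 40 in EB. Foxb2, Foxi1 and Foxi2 were among those not tested.

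Levels per exon length (RPKM, the CPM per kilobase of exon, averaged over the 12 groups of 4 lines and 3 days) put Foxp4, a repressor expressed in neural tube, lung and gut, first in NPC cultures at 63.1 RPKM, with group means between 16.0 and 119 RPKM. Next came Foxo3, a stress and metabolic regulator, at 22.4, Foxm1, which drives genes of mitosis, at 22.2, Foxk2, a glycolysis regulator, at 21.1 and Foxn3, a repressor, at 20.2 RPKM. The group ranges of these next members overlapped. In EB the order was led by Foxh1 at 36.5 RPKM, with groups between 22.4 and 46.9, then Foxo4 at 26.5 RPKM and Foxp4 at 22.5 RPKM, and these ranges also overlapped. The EB libraries numbered 1 of WT and CaPS were low for Foxp4 (median log2 ratio to replicates 2 and 3 of -2.89). For Foxo4 that ratio was 0.584, so the order of Foxo4 and Foxp4 may rest on these libraries. It was not computed without them. Within the roles, the highest mean over groups among endoderm members was that of Foxa1 in NPC, at 7.17 RPKM with groups between 0.203 and 18.4, and that of Foxa2 in EB, at 5.66 RPKM with groups between 0.407 and 13.4. Among mesoderm members it was Foxf1 in both, at 10.4 RPKM in NPC with groups between 0.140 and 31.5, and at 3.99 RPKM in EB with groups between 0.0485 and 15.4. These ranges overlap those of the other endoderm and mesoderm members. In NPC the Foxf1 mean rests on CaPS and mCaPS, whose libraries reached 124 CPM, against at most 11.5 CPM in WT.

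**Figure D1:**
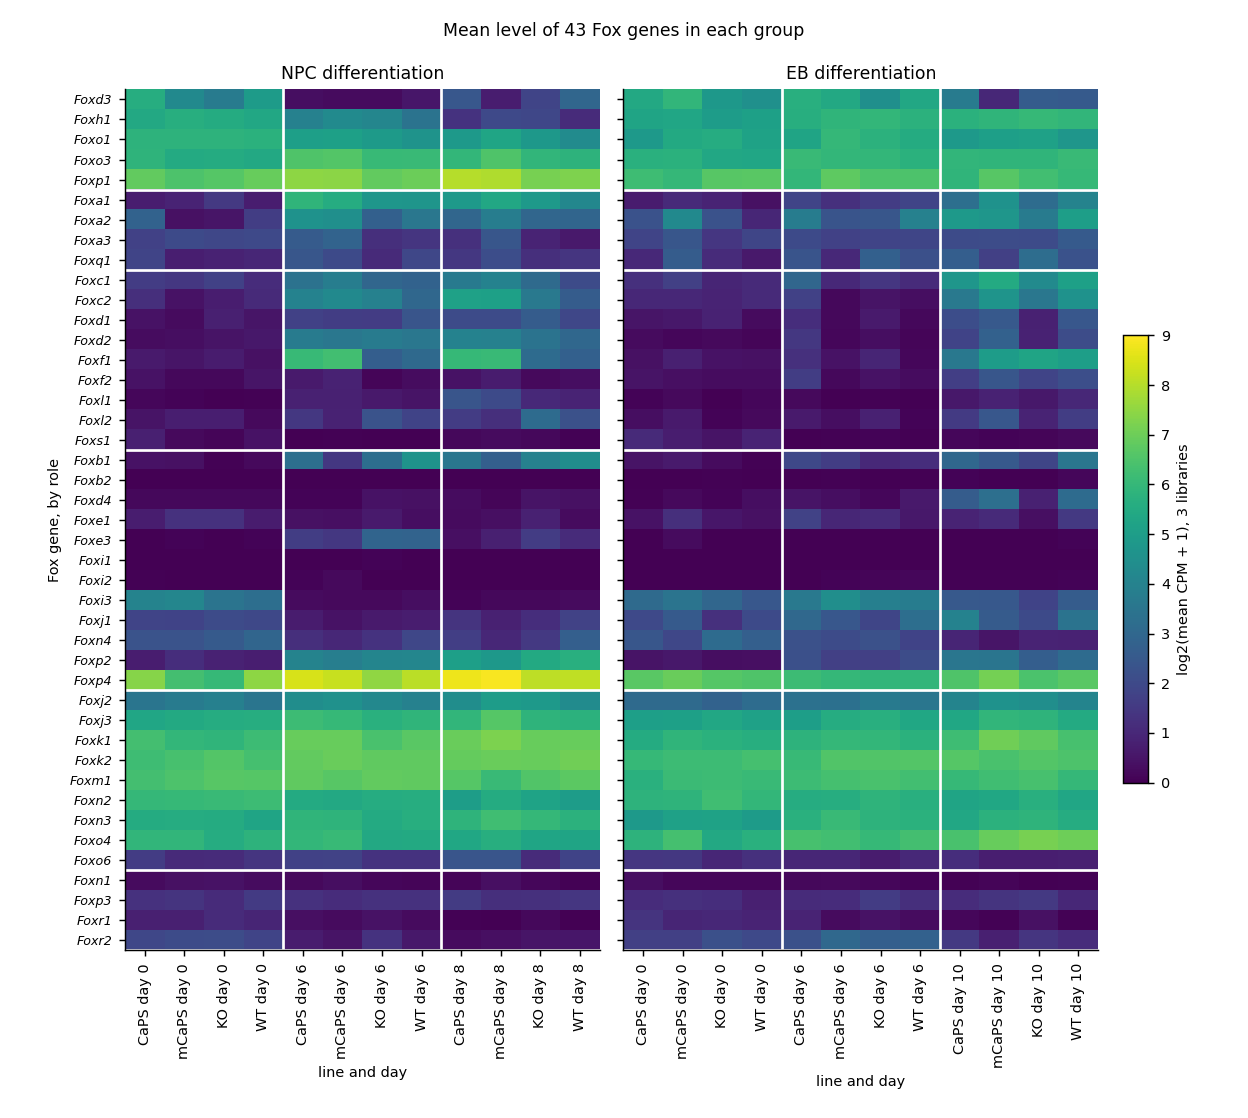
Level of 43 forkhead genes (rows, grouped by role with white lines) in every group of 3 libraries (columns, NPC left and EB right, days in order, and within a day CaPS, mCaPS, KO and WT), as log2 of the mean CPM plus 1. The broadly expressed members are high in nearly every column, and in NPC Foxh1, Foxd3 and Foxi3 are highest on day 0 in each line and Foxf1, Foxc2 and Foxa1 higher on days 6 and 8. In EB, Foxh1 is high on all 3 days, and Foxf1, Foxc1, Foxc2 and Foxa1 are highest on day 10 in each line.

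In WT cells under retinoic acid, 3 of 5 pluripotency members were lower by day 8, and 7 of 9 mesoderm members and 4 of 10 neural members were higher, while of the 4 endoderm members 1 was higher and 1 lower. Between day 0 and day 8, 26 of the 41 tested members changed, 16 higher (27.5% of all genes) and 10 lower (24.9%), in edgeR's quasi-likelihood test with Benjamini-Hochberg adjustment over all genes (adjusted p below 0.05). Over all 17818 genes tested, 52.4% changed, and the median log2 fold change was 0.40 for the members and 0.053 for all genes. Between day 0 and day 6, 23 members changed against 37.3% of all genes. Between day 6 and day 8 it was 2 members, against 7.34% of all genes. The largest changes by day 6 among members at 1 CPM or more were the rises of Foxb1, Foxe3, Foxa1, Foxp2, Foxd2 and Foxf1, between 4.40 and 7.11 on the log2 scale, and the falls of Foxd3 and Foxi3, at -6.02 and -5.03. Summed levels of cell type markers moved too: 10 neural markers were at 144.5 to 396.5 CPM on day 0, 808.9 to 1189 CPM on day 6 and 2401 to 3597 CPM on day 8, and 10 pluripotent cell markers at 2895 to 3265, 283.2 to 327.5 and 213.3 to 288.7 CPM. The 7 endoderm markers were at 5.227 to 6.38, 60.77 to 101.6 and 15.64 to 70.37 CPM, and 10 mesoderm and heart markers at 10.44 to 22.88, 13.13 to 46.45 and 7.566 to 19.97 CPM. In bulk RNA, fewer cells of a type and less RNA per cell cannot be told apart, and the part of these cell types in the forkhead changes was not tested.

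Foxh1 was counted at 52.4, 35.5 and 34.5 CPM on day 0, at 4.59, 9.01 and 15.9 CPM on day 6 and at 0.178, 1.18 and 2.03 CPM on day 8 in WT NPC libraries 1, 2 and 3. The 3 days did not overlap, and the gene fell in both steps, by a log2 fold change (± its standard error) of -2.05 ± 0.52 (adjusted p = 0.00277) on day 6 over day 0 and of -3.14 ± 0.57 (adjusted p = 0.00137) on day 8 over day 6. Foxd3, a repressor needed to keep ES cells and later neural crest, was at 44.2, 27.1 and 17.5 CPM on day 0, at 0.381, 0.587 and 0.382 CPM on day 6 and at 8.78, 5.49 and 6.08 CPM on day 8. It was lowest on day 6 in every library and came back in part by day 8, with no overlap between the days. The fall to day 6 was -6.02 ± 0.95 (adjusted p = 1.64e-05), and the rise to day 8 was 3.90 ± 0.88 (adjusted p = 0.00712). Foxh1 and Foxd3 were the 2 members that passed between day 6 and day 8, and both calls held under each of the 12 alternatives tried. More members passed with the compared groups only, with the replicate number as a block and with DESeq2 (counts given further on). Day 8 stayed below day 0 for Foxd3 (-2.12 ± 0.77, adjusted p = 0.0229), a call lost without WT NPC day 0 replicate 1, or WT NPC day 8 replicate 2 or 3 (adjusted p between 0.0662 and 0.0827).

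Foxo1, a metabolic regulator that also supports pluripotency, was at 46.9, 56.4 and 54.2 CPM on day 0, at 23.1, 20.5 and 27.5 CPM on day 6 and at 14.0, 20.8 and 22.7 CPM on day 8. Its day 0 libraries lay above all others, and the fall by day 8 was -1.45 ± 0.23 (adjusted p = 7.87e-06). Foxo3 and Foxp1, a repressor with an ES cell splice form, did not pass the test on day 8 over day 0, at 0.40 ± 0.33 (adjusted p = 0.315) and 0.37 ± 0.31 (adjusted p = 0.337). Of the 5 pluripotency members, 3 were lower and 0 higher.

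Foxi3, which specifies placodes and ectodermal appendages, was at 9.99, 7.23 and 8.48 CPM on day 0, at 0.245, 0.0469 and 0.509 CPM on day 6 and at 0, 0.269 and 0.300 CPM on day 8. It was nearly silent in all 6 differentiated libraries, a fall by day 8 of -5.49 ± 0.79 (adjusted p = 1.63e-06). Foxb1, a midbrain and hypothalamus gene, took the opposite course: 0.425, 0.0520 and 0.0725 CPM on day 0, 32.5, 17.9 and 20.2 CPM on day 6 and 15.3, 23.1 and 23.2 CPM on day 8. Foxp2, known for speech circuits and expressed in many neurons, was at 1.28, 0.0520 and 0.725 CPM on day 0, at 9.22, 22.8 and 17.3 CPM on day 6 and at 35.6, 60.4 and 55.8 CPM on day 8. The day 0 libraries lay below all later ones for both, and by day 8 Foxb1 had risen by 6.91 ± 1.41 (adjusted p = 0.000172) and Foxp2 by 6.28 ± 0.73 (adjusted p = 7.89e-08). Of the 10 neural, placode and cilia members tested, 4 were higher (Foxb1, Foxp2, Foxp4 and the lens gene Foxe3) and 1 lower (Foxi3). Foxp4 (0.69 ± 0.29, adjusted p = 0.0479) lost its call under 10 of 12 alternatives, among them without WT NPC day 0 replicate 2 or 3, or WT NPC day 8 replicate 1, 2 or 3 (adjusted p between 0.0626 and 0.209). Foxe3 (4.49 ± 1.78, adjusted p = 0.0333) lost its call without WT NPC day 0 replicate 2 or 3, or WT NPC day 8 replicate 2 or 3 (adjusted p between 0.056 and 0.116).

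Foxa1, the pioneer factor of endoderm and floor plate, was at 1.02, 0.390 and 0.580 CPM on day 0, at 30.3, 24.2 and 20.7 CPM on day 6 and at 16.3, 13.9 and 20.3 CPM on day 8. Every later library lay above every day 0 library, and the gene rose by 5.27 ± 0.41 (adjusted p = 1.85e-10) by day 6 and stood 4.70 ± 0.40 (adjusted p = 4.71e-10) above day 0 on day 8. Its paralog Foxa2 was higher on day 6 (2.41 ± 0.78, adjusted p = 0.0156), a call lost without WT NPC day 0 replicate 2 (adjusted p = 0.0697), and did not pass on day 8 (1.68 ± 0.76, adjusted p = 0.066). Foxa3, the liver and gut paralog, was lower on day 8 (-2.52 ± 0.70, adjusted p = 0.00356), and the fourth endoderm member, Foxq1, did not pass (0.74 ± 0.76, adjusted p = 0.429).

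Among the 9 mesoderm and mesenchyme members, 7 were higher on day 8 and 1, Foxs1, was lower. Foxf1, a regulator of lateral plate and gut mesenchyme, was at 0.425, 0.520 and 0.0725 CPM on day 0, at 2.91, 7.91 and 11.5 CPM on day 6 and at 0.475, 10.3 and 6.61 CPM on day 8. Library 1 of day 8 fell inside the day 0 range, and the test gave 4.05 ± 1.27 (adjusted p = 0.00905). Foxd2, of paraxial and kidney mesenchyme, rose by 3.93 ± 0.59 (adjusted p = 3.69e-06), and Foxl2, the ovary and pituitary factor, by 4.46 ± 0.82 (adjusted p = 5.27e-05). Foxl1, Foxd1 and Foxc2 rose by 4.15, 2.67 and 2.22 on the log2 scale. Foxc1 (1.39 ± 0.58, adjusted p = 0.0462) overlapped between the days and lost its call without WT NPC day 0 replicate 2 or 3, or WT NPC day 8 replicate 2 or 3 (adjusted p between 0.0997 and 0.178). The call of Foxs1 (-3.86 ± 1.67, adjusted p = 0.0429) was lost without WT NPC day 0 replicate 1 or 2, or WT NPC day 8 replicate 1 or 2 (adjusted p between 0.0602 and 0.141). The 14 feeder fibroblast markers summed to 73.77 to 242.4 CPM on day 8, against 496 to 4415 CPM on day 0, and their part in the Foxs1 fall was not tested.

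Of the 9 broadly expressed members, 4 were higher and 2 lower. Foxk1, Foxk2, Foxj2 and Foxn3 were higher on day 8 by 0.76, 0.71, 0.93 and 0.53 on the log2 scale, and Foxn2 and Foxo4 were lower, at -1.22 and -0.58. Foxj2 lost its call without WT NPC day 0 replicate 3 (adjusted p = 0.0524). Foxn3 lost it without WT NPC day 0 replicate 2, or WT NPC day 8 replicate 1 or 2 (adjusted p between 0.0734 and 0.128). Foxm1, at 112, 90.9 and 91.4 CPM on day 0, 108, 122 and 104 CPM on day 6 and 119, 92.8 and 104 CPM on day 8, did not pass (0.10 ± 0.23, adjusted p = 0.74). The germ line members Foxr1 and Foxr2 were lower by day 8, Foxr1 at -5.27 ± 1.15 (adjusted p = 0.000249) and Foxr2 at -2.55 ± 0.50 (adjusted p = 0.000107).

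**Figure D2:**
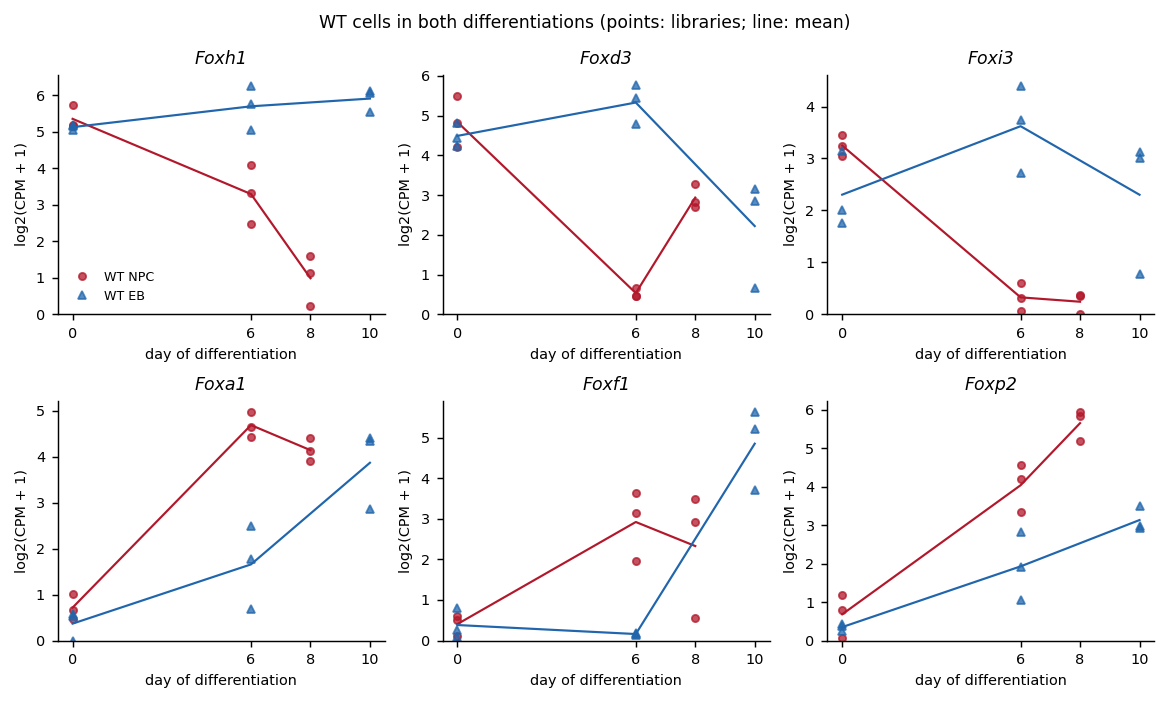
Level of 6 forkhead genes in each WT library over the days of culture, as log2 of CPM plus 1 (NPC circles, EB triangles, line through the mean). On day 6, Foxh1, Foxd3 and Foxi3 are lower in NPC than in EB and Foxa1, Foxp2 and Foxf1 higher, and Foxf1 is high in EB on day 10; the cultures were scaled separately.

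In WT EB cultures 8 of the 9 mesoderm members and 3 of the 4 endoderm members rose by day 10, and Foxd3 was high until day 6 and then fell. Between day 0 and day 10, 19 of 40 tested members changed, 16 higher and 3 lower, against 29.2% of all 17791 genes tested, 14.7% higher and 14.5% lower, with a median log2 fold change of 0.853 for the members and -0.022 for all genes. The 10 mesoderm and heart markers summed to 657.1 to 1245 CPM on day 10, against 12.93 to 21.04 CPM on day 0, and the 7 endoderm markers to 155.8 to 245.3 CPM on day 10, against 2.137 to 6.282 CPM on day 0. Their part in these rises was not tested. Between day 0 and day 6, 5 members changed against 7.88% of all genes, and between day 6 and day 10 it was 15 against 16.2%. Replicate numbers paired the WT EB libraries of different days, and with the number as a block 8 members changed by day 6. Without the 6 libraries numbered 1, 7 members changed by day 6, 12 between day 6 and day 10 and 19 between day 0 and day 10, 15 of which were among the 19 above. The count by day 6 dropped to 1 without WT EB day 0 replicate 3 or without WT EB day 6 replicate 2, and the count from day 6 to day 10 dropped to 9 without WT EB day 6 replicate 1.

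Foxf1 was at 0.0594, 0.743 and 0.199 CPM on day 0, at 0.113, 0.145 and 0.0954 CPM on day 6 and at 48.5, 12 and 36.3 CPM on day 10 in WT EB. Foxc1, a regulator of somite and cardiac mesoderm, was at 0.712, 1.12 and 1.54 CPM on day 0, at 0.338, 2.21 and 0.906 CPM on day 6 and at 30.3, 33.3 and 37.6 CPM on day 10. Its paralog Foxc2, with a role in lymphatic and somite development, was at 0.119, 1.15 and 2.05 CPM on day 0, at 0.0563, 0.580 and 0.143 CPM on day 6 and at 11.2, 19.3 and 38.0 CPM on day 10. All 3 were low through day 6 and high in every day 10 library. The rise by day 10 was 6.54 ± 1.01 (adjusted p = 2.2e-05) for Foxf1, 4.87 ± 0.83 (adjusted p = 7.37e-05) for Foxc1 and 4.30 ± 1.06 (adjusted p = 0.00282) for Foxc2. Foxd2, Foxd1 and Foxf2 rose by 4.82, 4.37 and 3.83 on the log2 scale. Foxl2 and Foxl1 also passed, at 3.51 and 3.05. Foxl2 lost its call without WT EB day 0 replicate 1, or WT EB day 10 replicate 2 (adjusted p between 0.0667 and 0.069). Foxl1 lost it without the 6 libraries numbered 1 (adjusted p = 0.106) and without WT EB day 0 replicate 1 or 2, or WT EB day 10 replicate 3 (adjusted p between 0.0581 and 0.0833).

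The endoderm members Foxa1 and Foxa2 rose by day 10. Foxa1 was at 0, 0.446 and 0.486 CPM on day 0, at 0.619, 4.64 and 2.43 CPM on day 6 and at 6.23, 19.2 and 20.4 CPM on day 10. Foxa2 was at 1.07, 1.23 and 0.596 CPM on day 0, at 0.506, 33.9 and 9.40 CPM on day 6 and at 25, 30.2 and 39.8 CPM on day 10. For both, all day 10 libraries lay above day 0, with 5.47 ± 1.03 (adjusted p = 0.000203) for Foxa1 and 5.06 ± 1.15 (adjusted p = 0.00142) for Foxa2. The day 6 libraries of Foxa2 spread so widely that library 1 lay below day 0: the change by day 6 was 3.95 ± 1.1 (adjusted p = 0.0228), but the replicate block gave 3.15 on the log2 scale (adjusted p = 0.101). Foxq1 was higher on day 10 (2.82 ± 0.96, adjusted p = 0.0259), a call lost without WT EB day 0 replicate 1, 2 or 3, or WT EB day 10 replicate 3 (adjusted p between 0.0566 and 0.163).

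Foxd3 in WT EB was at 17.9, 20.5 and 26.9 CPM on day 0, at 26.4, 42.5 and 53.6 CPM on day 6 and at 0.578, 6.24 and 7.85 CPM on day 10. The day 10 libraries lay below both earlier days, with -3.05 ± 0.72 (adjusted p = 0.00378) against day 6 and -2.15 ± 0.69 (adjusted p = 0.0197) against day 0. The day 0 contrast was lost without the 6 libraries numbered 1 (-1.77 on the log2 scale, adjusted p = 0.0756) and without WT EB day 0 replicate 3, or WT EB day 10 replicate 1 (adjusted p between 0.053 and 0.0809). Foxh1 was at 35.4, 34.6 and 32.3 CPM on day 0, 32.5, 76.3 and 53.6 CPM on day 6 and 66.7, 45.7 and 68.5 CPM on day 10. The day 10 and day 6 libraries lay at or near the day 0 level or above it, and the change by day 10 did not pass (0.82 ± 0.37, adjusted p = 0.0909). The summed level of 10 pluripotent cell markers was 166.9 to 467.3 CPM on EB day 10, against 2800 to 2987 CPM on EB day 0.

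Foxb1 was at 0.0594, 0 and 0.0441 CPM on day 0, at 0.113, 2.94 and 0.811 CPM on day 6 and at 4.76, 10.6 and 16.0 CPM on day 10. Foxd4, which acts in early neural ectoderm, was at 0.0594, 0.520 and 0.177 CPM on day 0, at 0.169, 1.02 and 0.429 CPM on day 6 and at 1.29, 10.6 and 11.7 CPM on day 10. Foxp2 was at 0.178, 0.297 and 0.353 CPM on day 0, at 1.07, 6.13 and 2.74 CPM on day 6 and at 6.58, 10.4 and 6.83 CPM on day 10. The day 10 libraries of all 3 lay above day 0, with 8.16 ± 1.49 (adjusted p = 0.000124) for Foxb1, 4.91 ± 1.29 (adjusted p = 0.00471) for Foxd4 and 4.77 ± 0.79 (adjusted p = 4.71e-05) for Foxp2. Foxp2 was also higher by day 6 (3.52 ± 0.76, adjusted p = 0.00298), the 1 of the 5 members called by day 6 whose call held under every alternative tried. The other 4 were Foxa2, Foxb1, Foxn3 and Foxs1. Foxa2 lost its call without WT EB day 0 replicate 1, 2 or 3, or WT EB day 6 replicate 2 (adjusted p between 0.0602 and 0.232). Foxb1 (5.16 ± 1.47, adjusted p = 0.0226) lost it without WT EB day 0 replicate 2 or 3, or WT EB day 6 replicate 2 (adjusted p between 0.101 and 0.173). Foxn3 (0.84 ± 0.25, adjusted p = 0.0377) lost it without WT EB day 0 replicate 1 or 3, or WT EB day 6 replicate 2 or 3 (adjusted p between 0.0917 and 0.16). Foxs1, a pericyte and neural crest gene, had no count in any WT day 6 library and was at least 7.27-fold lower than on day 0, from a floor of 3 counts per library (adjusted p = 0.0105). The Foxs1 call was lost without WT EB day 0 replicate 3, or WT EB day 6 replicate 2 or 3 (adjusted p between 0.0516 and 0.0627). The 14 feeder markers summed to 25.88, 37.35 and 74.16 CPM on day 6, against 609.9, 2099 and 4558 CPM on day 0, where library 3 was the highest, and their part in the Foxs1 fall was not tested.

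The last 4 of the 19 members were Foxn4, Foxr1, Foxj1 and Foxo4. Foxn4, a retina and spinal cord interneuron gene, was lower (-2.73 ± 0.52, adjusted p = 0.000228), as was Foxr1 (-3.90 ± 1.16, adjusted p = 0.0105), whose call was lost without the 6 libraries numbered 1 (adjusted p = 0.0767) or without WT EB day 10 replicate 2 (adjusted p = 0.0524). Foxj1, the master regulator of motile cilia, was higher (1.69 ± 0.59, adjusted p = 0.0312) and lost its call without the 6 libraries numbered 1 (adjusted p = 0.067) or without WT EB day 0 replicate 1 or 2, or WT EB day 10 replicate 3 (adjusted p between 0.0744 and 0.152). Foxo4 was higher (1.33 ± 0.34, adjusted p = 0.00361), with overlapping libraries, and lost its call without WT EB day 10 replicate 1 (adjusted p = 0.103).

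Between day 6 and day 10 in WT EB, Foxf1 rose by 8.08 ± 1.13 (adjusted p = 3.05e-05), Foxc2 by 6.41 ± 1.21 (adjusted p = 0.000518) and Foxc1 by 4.84 ± 0.83 (adjusted p = 0.000212). Foxd2, Foxl2 and Foxd1 rose by 5.26, 4.88 and 4.80 on the log2 scale, and all 6 calls held under 13 alternatives. Foxl1, a gut mesenchyme gene, had no count in WT EB day 6 and was at least 8.82-fold higher on day 10. Foxd4 rose by 3.83 ± 1.2 (adjusted p = 0.0267), a call lost without the 6 libraries numbered 1 (adjusted p = 0.0686) and without WT EB day 10 replicate 2 or 3, or WT EB day 6 replicate 1 or 3 (adjusted p between 0.0647 and 0.115).

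The first 6 days differed between the cultures for 11 of 40 members, against 5.81% of 16941 genes, 6 higher (3.3% of genes) and 5 lower (2.51%), in 1 fit of the 18 WT libraries that tests the NPC change minus the EB change. Foxd3 differed by -6.92 ± 0.89 (adjusted p = 0.000181), Foxi3 by -6.55 ± 1.26 (adjusted p = 0.0045) and Foxj1 by -3.68 ± 0.75 (adjusted p = 0.00669), and these 3 calls held under each of 19 alternatives. Foxi3 was at 2.37, 7.84 and 3.02 CPM on EB day 0, at 5.63, 20.1 and 12.4 CPM on day 6 and at 0.712, 7.06 and 7.67 CPM on day 10, and each EB day 6 library lay above the NPC day 6 libraries given before. Foxj1 was at 0.734, 0.399 and 0.763 CPM on NPC day 6 and at 4.73, 12 and 8.73 CPM on EB day 6, with no overlap. These levels were scaled separately in the EB and NPC tables, and only the fit of 18 libraries tests them together.

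The other 8 members that differed each lost the call under at least 1 alternative. Foxr2 and Foxh1 had the lower change in NPC, at -3.42 ± 0.80 (adjusted p = 0.0169) and -2.72 ± 0.73 (adjusted p = 0.034). The mesoderm members among them, 6 of 9, had the higher change in NPC: Foxc2 (4.77 ± 1.04, adjusted p = 0.0109), Foxl2 (5.23 ± 1.31, adjusted p = 0.0231), Foxf1 (5.95 ± 1.5, adjusted p = 0.024), Foxd2 (4.99 ± 1.38, adjusted p = 0.0398), Foxd1 (3.71 ± 1.08, adjusted p = 0.0496) and Foxl1, which had no count in WT EB day 6 and for which the adjusted p was 0.0184. Foxr2 was lost without WT EB day 0 replicate 3, or WT NPC day 6 replicate 2 (adjusted p between 0.0536 and 0.055). Foxf1 was lost without WT EB day 0 replicate 2, WT EB day 6 replicate 1 or 3, or WT NPC day 0 replicate 3 (adjusted p between 0.0527 and 0.126), and Foxl1 without WT EB day 0 replicate 3, or WT EB day 6 replicate 3 (adjusted p between 0.0539 and 0.0656). The Foxd2 difference was 0.09 on the log2 scale without WT EB day 0 replicate 3 (adjusted p = 0.906). The calls of Foxh1, Foxl2 and Foxd1 were lost without several single libraries, with adjusted p up to 0.0884 for Foxh1, 0.105 for Foxl2 and 0.155 for Foxd1. The count of members was 13 without the 6 libraries numbered 1, and 5 without WT EB day 0 replicate 3 or without WT EB day 6 replicate 3.

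**Figure D3:**
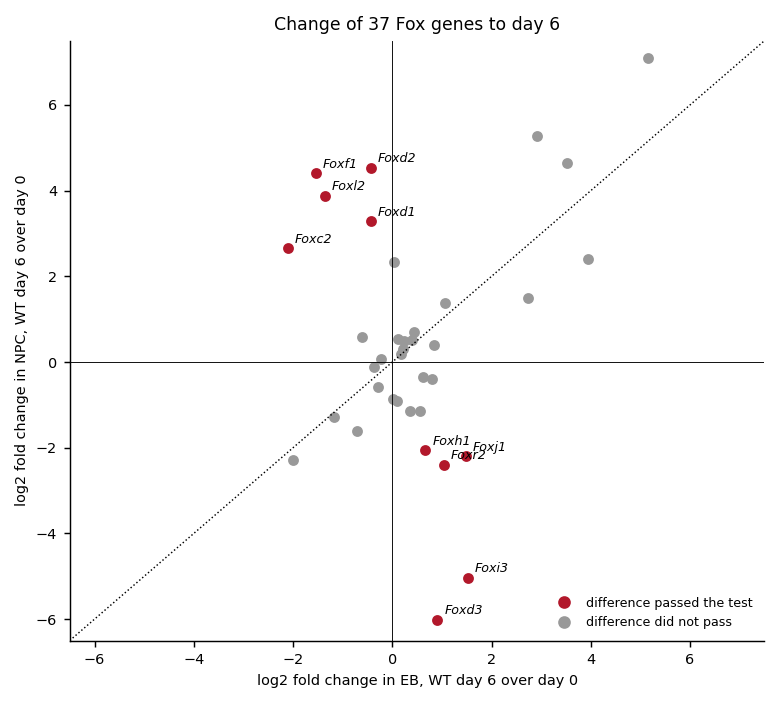
Change of each of 37 forkhead genes in WT cells from day 0 to day 6, in EB (horizontal, log2 fold change) and in NPC (vertical), with the dotted line marking equal change. The 10 labelled points in red passed the test of the difference between the cultures: Foxd3, Foxi3, Foxj1, Foxr2 and Foxh1 lie below the line and Foxc2, Foxl2, Foxf1, Foxd2 and Foxd1 above it, and genes with a group at 0 are not drawn.

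The lines were compared with WT on each day, and these comparisons share the WT libraries. In mCaPS on NPC day 8, 3 of 9 mesoderm members and 2 of 4 endoderm members were higher than in WT and Foxd3 was lower. There 10 of 41 members differed, 8 higher and 2 lower, against 18.5% of all genes, 9.39% higher and 9.06% lower. The median log2 fold change there was 0.627 for the members and 0 for all genes. CaPS had 0 members called on NPC day 8 against 0.0112% of all genes. At an unadjusted p under 0.05 in edgeR it had 11 of 41 members and 1567 of all 17818 genes, and DESeq2 called 2 members. KO had 0 against 0.0505%. At that unadjusted p it had 9 members and 1520 genes, and DESeq2 called 0 members. DESeq2 results were kept for the members only, so no share of all genes stands beside them.

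Foxc2 on NPC day 8 was at 10.3, 49.8 and 42.8 CPM in CaPS, 44.2, 23.4 and 34.2 CPM in mCaPS, 4.68, 11.5 and 18 CPM in KO and 4.15, 6.62 and 4.65 CPM in WT. All 6 CaPS and mCaPS libraries lay above WT, while KO overlapped it. The difference from WT was 2.72 ± 0.57 (adjusted p = 0.00254) in mCaPS and 2.74 ± 0.57 (adjusted p = 0.0798) in CaPS, where it did not pass. Foxf1 was at 0.896, 124 and 66.5 CPM in CaPS, 101, 50.3 and 53.9 CPM in mCaPS, 3.16, 6.38 and 13.7 CPM in KO and 0.475, 10.3 and 6.61 CPM in WT. Every mCaPS library lay above WT, and CaPS was split, with library 1 at the WT level and libraries 2 and 3 far above it. Foxf1 differed by 3.56 ± 1.11 (adjusted p = 0.0257) in mCaPS, a call lost without mCaPS NPC day 8 replicate 1 or 3, or WT NPC day 8 replicate 1 or 3 (adjusted p between 0.0534 and 0.107). Foxc1 was at 2.28, 15.2 and 18.6 CPM in CaPS, 16.4, 15.4 and 13.1 CPM in mCaPS, 6.32, 6.55 and 10.0 CPM in KO and 1.19, 4.15 and 4.20 CPM in WT. It was higher in mCaPS (2.23 ± 0.58, adjusted p = 0.00874), with no overlap, and lost its call without WT NPC day 8 replicate 1 (adjusted p = 0.0571).

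Foxa1 on NPC day 8 was at 23.3, 35.0 and 24.8 CPM in CaPS, 37.2, 49.5 and 37.9 CPM in mCaPS, 17.0, 40.5 and 24.5 CPM in KO and 16.3, 13.9 and 20.3 CPM in WT. The mCaPS libraries did not overlap with WT (1.30 ± 0.33, adjusted p = 0.00793). Foxa3 was at 0.145, 2.54 and 1.40 CPM in CaPS, 2.80, 3.58 and 6.47 CPM in mCaPS, 0.339, 0.612 and 1.67 CPM in KO and 0.178, 0.485 and 0.901 CPM in WT. It too was higher in every mCaPS library than in WT (3.05 ± 0.71, adjusted p = 0.00462), while CaPS and KO overlapped WT. Foxo1 was at 15.3, 36.6 and 32.0 CPM in CaPS, 37.4, 30.6 and 46.6 CPM in mCaPS, 22.3, 24.6 and 34.6 CPM in KO and 14.0, 20.8 and 22.7 CPM in WT, higher in mCaPS by 1.00 ± 0.23 (adjusted p = 0.00443).

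Foxd3 was lower in mCaPS. On NPC day 8 it was at 9.21, 1.33 and 2.60 CPM in CaPS, 0.251, 0.912 and 0.776 CPM in mCaPS, 1.35, 5.61 and 0.695 CPM in KO and 8.78, 5.49 and 6.08 CPM in WT. Every mCaPS library was under 1 CPM and below every WT library, a difference of -3.40 ± 0.85 (adjusted p = 0.00721). Foxn4 was at 0.460, 2.45 and 0.129 CPM in mCaPS and 2.14, 9.04 and 5.78 CPM in WT, with overlap, and was lower (-2.47 ± 0.71, adjusted p = 0.0172). Its call was lost without mCaPS NPC day 8 replicate 1 or 3, or WT NPC day 8 replicate 2 (adjusted p between 0.0723 and 0.0977). Foxj3 and Foxn2, both broadly expressed, were higher by 0.85 ± 0.25 (adjusted p = 0.0182) and 0.57 ± 0.20 (adjusted p = 0.0487). Foxj3 lost its call without mCaPS NPC day 8 replicate 3, or WT NPC day 8 replicate 1 (adjusted p between 0.0694 and 0.332). Foxn2 lost it without mCaPS NPC day 8 replicate 3, or WT NPC day 8 replicate 1, 2 or 3 (adjusted p between 0.074 and 0.324). The calls of Foxc2, Foxa3, Foxa1, Foxo1 and Foxd3 held under each of 12 alternatives, with adjusted p up to 0.0413. The count of members was 6 without mCaPS NPC day 8 replicate 3 or without WT NPC day 8 replicate 1.

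**Figure D4:**
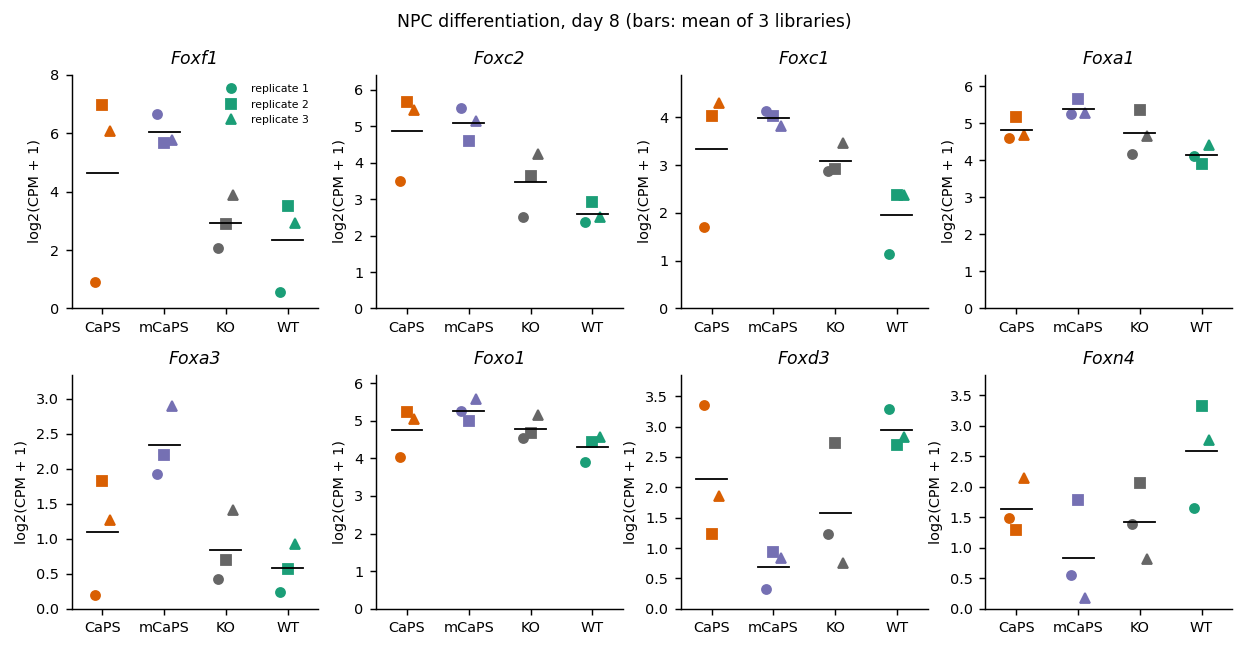
Level of 8 forkhead genes on NPC day 8 in each library (replicate 1 circle, 2 square, 3 triangle) of CaPS, mCaPS, KO and WT, as log2 of CPM plus 1, with a bar at the mean. In mCaPS, Foxf1, Foxc2, Foxc1, Foxa1, Foxa3 and Foxo1 lie above all WT libraries and Foxd3 below them, and CaPS replicate 1 lies apart from CaPS replicates 2 and 3 for Foxf1, Foxc2, Foxc1 and Foxa3.

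Markers of other cell types moved with these genes on NPC day 8. The summed level of 7 endoderm markers was 15.41, 508.8 and 384.6 CPM in CaPS, 519.2, 344.9 and 746.6 CPM in mCaPS, 28.38, 31.82 and 59.62 CPM in KO and 15.64, 56.96 and 70.37 CPM in WT. The 10 mesoderm and heart markers summed to 10.01, 157.6 and 96.74 CPM in CaPS, to 169.5, 98.44 and 170.4 CPM in mCaPS, to 28.3, 18.23 and 105.6 CPM in KO and to 7.566, 18.28 and 19.97 CPM in WT. Both lists followed Foxf1 and Foxa3 library by library in CaPS, where library 1 was low and libraries 2 and 3 were high. The 14 markers of feeder fibroblasts, none of them at 0 in a whole group, summed to 142.3, 1063 and 911.1 CPM in CaPS, to 1022, 704.4 and 2534 CPM in mCaPS, to 162.6, 158.5 and 438.8 CPM in KO and to 73.77, 242.4 and 204.9 CPM in WT. On day 0 this sum was lower in mCaPS (118.3 to 210.4 CPM) and KO (94.25 to 145.2 CPM). It was higher on day 0 in WT (496 to 4415 CPM) and overlapped day 8 in CaPS (386.2 to 4340 CPM). Feeders were removed before differentiation, so the list cannot be read as feeder cells alone on day 8. The 10 neural markers summed to 3102, 999.6 and 1395 CPM in CaPS, to 958.5, 864.3 and 461.1 CPM in mCaPS, to 2709, 2393 and 894.2 CPM in KO and to 3597, 2590 and 2401 CPM in WT. The part of these cell types in the forkhead differences was not tested.

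In CaPS, the count on NPC day 8 depended on 1 library. Replicate numbers paired CaPS with WT on that day (correlations of 0.589, 0.408 and 0.335). WT replicate 1 was also the lowest WT library for Foxc2, Foxc1, Foxo1 and Foxf1. The same held for the endoderm markers, at 15.64, 56.96 and 70.37 CPM in WT. With the replicate block, which keeps the pairing, the count stayed at 0. Leaving out CaPS replicate 1 alone kept this WT library, so the differences that follow compare unlike sets of numbers. That refit was kept for the members only, so no share of all genes stands beside its count. Without CaPS NPC day 8 replicate 1, 5 members were higher than in WT: Foxc2 (3.19 on the log2 scale, adjusted p = 0.00147), Foxc1 (2.44, adjusted p = 0.00617), Foxo1 (0.86, adjusted p = 0.0138), Foxf1 (4.07, adjusted p = 0.0141) and Foxl1 (2.83, adjusted p = 0.0208). Between CaPS and mCaPS on that day, 0 members were called against 1.59% of all genes. In edgeR 7 members and 3256 of all 17818 genes had an unadjusted p under 0.05, and DESeq2 called 1 member. For Foxc2 this difference was 0.02 ± 0.53 and for Foxf1 -0.10 ± 0.99 on the log2 scale (adjusted p = 0.993 and 0.973), which does not show that the lines act alike.

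Earlier in the NPC course fewer members differed. On day 0, Foxp4 was at 248, 114 and 129.5 CPM in CaPS, 84.3, 72.8 and 77.9 CPM in mCaPS, 50.1, 61.0 and 82.2 CPM in KO and 222, 169.6 and 134 CPM in WT. All mCaPS and KO libraries lay below all WT libraries, at -1.16 ± 0.29 (adjusted p = 0.024) for mCaPS and -1.44 ± 0.29 (adjusted p = 0.00418) for KO. It was the 1 member called in mCaPS against 3.02% of all genes, and its call was lost without mCaPS NPC day 0 replicate 1, 2 or 3, or WT NPC day 0 replicate 1 or 2 (adjusted p between 0.0688 and 0.144). In KO it was 1 of 2 members called against 5.52% of all genes, with Foxa1 (1.48 ± 0.38, adjusted p = 0.02). The KO call of Foxp4 was lost without KO NPC day 0 replicate 1 (adjusted p = 0.0549) and that of Foxa1 without KO NPC day 0 replicate 2, or WT NPC day 0 replicate 2 or 3 (adjusted p between 0.0537 and 0.184). The 14 feeder markers summed on day 0 to 168.1, 118.3 and 210.4 CPM in mCaPS, to 145.2, 94.25 and 132.8 CPM in KO and to 4415, 2304 and 496 CPM in WT, and their part in the Foxp4 difference was not tested.

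CaPS had 0 members called against WT on NPC day 0 and day 6, against 0% of all genes on both days. In edgeR 0 and 4 members had an unadjusted p under 0.05, as did 639 and 1175 of all 17818 genes. DESeq2 called 0 and 1 members. Replicate numbers paired CaPS with WT, and the block gave 3 calls on day 0: Foxa2 (1.49 on the log2 scale, adjusted p = 0.0202), Foxi3 (0.86, adjusted p = 0.0129) and Foxo3 (0.40, adjusted p = 0.0391). On day 6, mCaPS had 1 call, Foxo4 (0.61 ± 0.16, adjusted p = 0.0426), against 2.22% of all genes, and this was lost without mCaPS NPC day 6 replicate 1 or 3, or WT NPC day 6 replicate 1, 2 or 3 (adjusted p between 0.0912 and 0.226). KO had 0 calls on day 6 against 0.0281%. In edgeR 2 members and 848 of all genes had an unadjusted p under 0.05, and DESeq2 called 0 members. Foxf1 on day 6 was at 2.06, 107 and 87.2 CPM in CaPS, 112, 37.7 and 80.0 CPM in mCaPS, 3.39, 5.61 and 7.44 CPM in KO and 2.91, 7.91 and 11.5 CPM in WT, so the split of the CaPS libraries seen on day 8 was there on day 6. The marker sums split the same way on day 6. Endoderm markers were at 69.99, 775.2 and 572.5 CPM in CaPS, 652.2, 339.3 and 865.6 CPM in mCaPS, 26.25 to 55.25 CPM in KO and 60.77 to 101.6 CPM in WT. Mesoderm and heart markers were at 27.31, 422.3 and 280 CPM in CaPS, 343, 101.5 and 381.6 CPM in mCaPS, 24.66 to 47.45 CPM in KO and 13.13 to 46.45 CPM in WT. Their part in the Foxf1 levels was not tested.

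The change over time itself differed between mCaPS and WT in NPC for 5 of 41 members, against 9.49% of all genes. Foxc2 gained 4.40 ± 0.86 (adjusted p = 0.00269) more in mCaPS than in WT between day 0 and day 8, and Foxp4 1.93 ± 0.41 (adjusted p = 0.0046) more, and both held under 18 alternatives. These values also hold the line difference on day 0. Foxp4 was lower in mCaPS on day 0 and was not called on day 8, and the Foxc2 difference on day 8 alone was smaller. The 14 feeder markers on day 0 summed to 118.3 to 210.4 CPM in mCaPS and 496 to 4415 CPM in WT, and their part was not tested. Foxa2 (3.64 ± 1.12, adjusted p = 0.0375), Foxa3 (2.99 ± 0.94, adjusted p = 0.0415) and Foxl2 (-3.50 ± 1.06, adjusted p = 0.033) also passed but each lost the call on leaving out any of 7 or more of the 12 libraries, one at a time, with adjusted p up to 0.096, 0.127 and 0.105. No member passed for CaPS or KO against WT in NPC (0 of 41 in each, against 0% and 0.337% of all genes). In edgeR 3 and 4 members had an unadjusted p under 0.05, as did 887 and 1949 of all 17818 genes. DESeq2 called 0 members for both.

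In CaPS, mCaPS and KO, Foxi3 fell and Foxp2, Foxa1 and Foxc2 rose over the NPC course. Between day 0 and day 8, 24 members changed in CaPS against 48.6% of all genes, 29 in mCaPS against 46.2% and 24 in KO against 43.3%. Foxi3 changed by -7.82 ± 0.88 in CaPS, -6.78 ± 0.82 in mCaPS and -6.22 ± 0.82 in KO on the log2 scale. Foxp2 changed by 5.65 ± 0.71 in CaPS, 4.44 ± 0.66 in mCaPS and 5.70 ± 0.70 in KO, and Foxa1 by 5.44 ± 0.41, 5.61 ± 0.40 and 3.92 ± 0.37. Foxf1 rose by 6.76 ± 1.33 (adjusted p = 0.000136) in CaPS and 7.31 ± 1.36 (adjusted p = 8.28e-05) in mCaPS, and 3.66 ± 1.18 (adjusted p = 0.0131) in KO, where the call was lost without KO NPC day 0 replicate 3, or KO NPC day 8 replicate 3 (adjusted p between 0.0501 and 0.0621). Foxc2 rose by 4.66 in CaPS, 6.62 in mCaPS and 4.16 in KO, and Foxh1 changed by -4.80 ± 0.59 in CaPS and -4.01 ± 0.57 in KO. Foxd3 fell in all 3, at -3.46 ± 0.82 (adjusted p = 0.000936) in CaPS, -4.84 ± 0.90 (adjusted p = 7.66e-05) in mCaPS and -2.26 ± 0.78 (adjusted p = 0.0209) in KO. The KO call of Foxd3 was lost without KO NPC day 0 replicate 3, or KO NPC day 8 replicate 1 or 3 (adjusted p between 0.08 and 0.364). The lens gene Foxe3 had no count in KO on day 0 and was at least 27.5-fold higher on day 8 there (adjusted p = 0.00277).

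In EB no member differed from WT on any day in CaPS, mCaPS or KO (0 of 40 in each of 9 comparisons). For CaPS, mCaPS and KO, the share of all 17791 genes called was 0%, 0.916% and 0.641% on day 0. It was 0%, 0.54% and 0.646% on day 6 and 0.00562%, 0.708% and 0.877% on day 10. On day 0, 1, 5 and 2 of 40 members had an unadjusted p under 0.05 in edgeR, as did 255, 2025 and 1230 genes. On day 6 it was 9, 0 and 3 members and 971, 751 and 1061 genes. On day 10 it was 0, 1 and 7 members and 763, 1173 and 1701 genes. DESeq2 called 0, 2 and 0 members on day 0, 1, 0 and 0 on day 6 and 0, 1 and 0 on day 10. Without the 6 libraries numbered 1, 1 member passed in mCaPS on day 10 (Foxd3), 1 in KO on day 10 and 0 in the other 7 comparisons. A p that misses the threshold does not show that the lines were equal.

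Foxa2 in mCaPS on EB day 0 passed under 4 of the alternatives. It was at 17.3, 8.65 and 28.7 CPM in mCaPS and 1.07, 1.23 and 0.596 CPM in WT. All mCaPS libraries lay above WT, at 4.25 ± 1.12 (adjusted p = 0.0633). It passed with DESeq2 (4.33 on the log2 scale, adjusted p = 0.00199), with the compared groups only (4.32, adjusted p = 0.0322), with the replicate block (4.18, adjusted p = 0.0198) and without mCaPS EB day 0 replicate 2 (4.59, adjusted p = 0.0422). The other member that DESeq2 called there was Foxq1 (3.32, adjusted p = 0.0107). The 7 endoderm markers summed to 11.15, 8.863 and 26.99 CPM in mCaPS and to 2.137, 6.282 and 4.48 CPM in WT, and their part in the Foxa2 difference was not tested.

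On EB day 6, Foxc1 was at 1.34, 0.551 and 18.4 CPM in CaPS and 0.338, 2.21 and 0.906 CPM in WT, and Foxd2 at 0.121, 0.0919 and 5.11 CPM in CaPS and 0.0563, 0.145 and 0.0477 CPM in WT. CaPS replicate 3 was the high library for both. That library had 577.6 CPM of summed mesoderm markers, against 14.54 and 26.55 CPM in CaPS replicates 1 and 2, and the part of those cells was not tested.

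Foxd3 on EB day 10 separated CaPS from mCaPS. It was at 9.75, 12.7 and 14.9 CPM in CaPS, 1.08, 1.05 and 0.812 CPM in mCaPS, 1.53, 3.88 and 9.83 CPM in KO and 0.578, 6.24 and 7.85 CPM in WT. Every CaPS library lay above every mCaPS library, and the difference of CaPS over mCaPS was 3.66 ± 0.75 (adjusted p = 0.00403), held under each of 13 alternatives with adjusted p up to 0.0395. It was the 1 member called in this comparison, against 3.18% of all genes. Against WT neither line passed: mCaPS stood at -2.32 ± 0.72 (adjusted p = 0.224) and CaPS at 1.34 ± 0.68 (adjusted p = 1), and WT library 1 was below the mCaPS libraries. For mCaPS the call appeared without the 6 libraries numbered 1 (-2.83 on the log2 scale, adjusted p = 0.0353), and without WT EB day 10 replicate 1 (-2.84, adjusted p = 0.0367). Summed pluripotent cell markers on EB day 10 were 453.9 to 679.1 CPM in CaPS, 170.3 to 191.1 CPM in mCaPS, 315.6 to 1075 CPM in KO and 166.9 to 467.3 CPM in WT, and their part in the Foxd3 difference was not tested. On day 0, mCaPS replicate 3 had 143 CPM of Foxd3, against 19.0 and 15.9 CPM in the other 2, and also the largest Rn45s share of the EB libraries, 88.7%.

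Over the EB course, Foxf1, Foxc1 and Foxc2 rose in CaPS, mCaPS and KO. There 17 members changed in CaPS against 26.7% of all genes, 19 in mCaPS against 36.3% and 15 in KO against 25.3%, and the CaPS count was 16 without the 3 CaPS libraries numbered 1. Foxf1 rose by 5.14 ± 0.97 in CaPS, 5.71 ± 0.99 in mCaPS and 6.71 ± 1.00 in KO on the log2 scale, and Foxc1 by 4.20 ± 0.81, 4.42 ± 0.82 and 4.35 ± 0.81. Foxc2 rose by 3.53 in CaPS, 4.69 in mCaPS and 3.66 in KO. Foxd3 fell in mCaPS (-5.90 ± 0.82, adjusted p = 4.21e-06) and in KO (-2.39 ± 0.69, adjusted p = 0.0117), and was at -1.74 ± 0.68 (adjusted p = 0.0565) in CaPS. Without mCaPS EB day 0 replicate 3, the library with 88.7% Rn45s, the mCaPS fall was -4.17 on the log2 scale (adjusted p = 3.2e-05). Foxd4 rose by 7.23 in CaPS and 6.25 in mCaPS, and was at 3.45 ± 1.33 (adjusted p = 0.0522) in KO. Without CaPS EB day 10 replicate 2, the Foxd4 rise in CaPS was 5.11 (adjusted p = 0.0183). The KO call of Foxd3 was lost without KO EB day 10 replicate 1 or 2 (adjusted p between 0.0564 and 0.0747). That of Foxc2 was lost in CaPS without CaPS EB day 0 replicate 1, or CaPS EB day 10 replicate 2 (adjusted p between 0.0549 and 0.0672), and in KO without KO EB day 10 replicate 1 (adjusted p = 0.0676). The CaPS count dropped to 9 without CaPS EB day 10 replicate 2, and the KO count to 9 without KO EB day 10 replicate 1. The difference in change from WT gave 0 members for CaPS, mCaPS and KO, against 0%, 0% and 0.00562% of all genes. In edgeR 1, 5 and 6 members had an unadjusted p under 0.05, as did 437, 933 and 632 of all 17791 genes. DESeq2 called 0, 1 and 0 members.

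The 6 EB libraries that stand apart also stood apart for this family. In them, 12 of the 39 members with 1 CPM or more were over 2-fold lower, by the median over the 6 groups, than in replicates 2 and 3 of the same groups, and 0 were over 2-fold higher. Among the 12 were Foxa1, Foxc2, Foxj2, Foxj3, Foxk1, Foxl2, Foxm1, Foxo1, Foxo3, Foxp4 and Foxq1. The same ratio in mCaPS and KO passed 2-fold for 0 of 37 members. Foxp4 in WT EB shows the size: 16.6, 143 and 114 CPM on day 0, 11.2, 101 and 67.9 CPM on day 6 and 18.8, 170.2 and 122 CPM on day 10, with library 1 the low one on each day. The ratio was not computed over all genes, so these counts do not show that the family differs from other genes in this. What set these libraries apart was not tested.

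**Figure D5:**
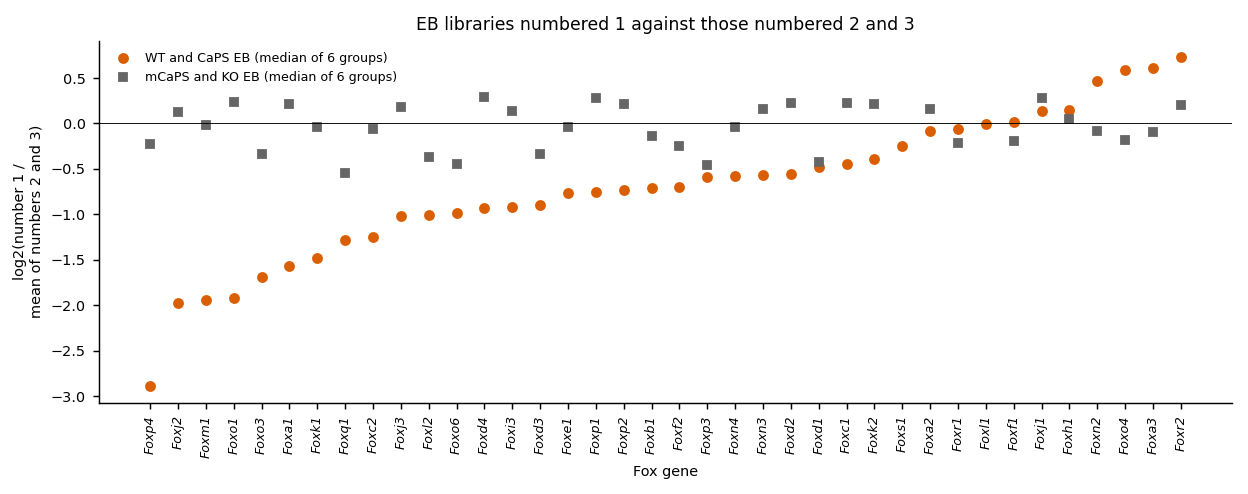
Log2 ratio of the level in replicate 1 to the mean of replicates 2 and 3 for each forkhead gene in EB, as the median over 6 groups, for WT with CaPS (orange) and for mCaPS with KO (grey squares). For WT with CaPS 11 of the 38 genes drawn lie below -1, and for mCaPS with KO 0 of 36 do.

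For the CaPS-R line, the tables as read here ended in a cut line, so genes after the cut are absent. They held 20930 genes (NPC) and 20823 genes (EB), with 39 members. Foxk1, Foxk2, Foxn3, Foxo6 and Foxr1 are not analysed here for this line, and its levels were scaled within its own tables, so its changes over time are given without a test against the other lines. In NPC 15 of 30 tested members changed between day 0 and day 8, against 47.8% of all genes, and in EB 18 of 32 changed between day 0 and day 10, against 21.5%. Foxh1 in CaPS-R NPC was at 15.7, 18.4 and 14.7 CPM on day 0, 2.04, 1.91 and 5.74 CPM on day 6 and 0.101, 0.0587 and 0.235 CPM on day 8, a fall of -6.80 ± 0.61 (adjusted p = 4.29e-06). Foxp2 rose by 6.67 ± 0.93 (adjusted p = 0.000212) and Foxa1 by 5.14 ± 0.87 (adjusted p = 0.000513). Foxi3 had no count on day 8 and was at least 69.5-fold lower than on day 0 (adjusted p = 0.000104).

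In CaPS-R EB, Foxa2 was at 0.172, 0.751 and 0.135 CPM on day 0, 1.28, 0.310 and 0.670 CPM on day 6 and 16.5, 34.3 and 39.7 CPM on day 10, a rise of 6.27 ± 0.70 (adjusted p = 9.81e-05). Foxd4 and Foxb1 had no count on day 0 and were at least 35.9-fold and 16.5-fold higher on day 10 (adjusted p = 0.00115 and 0.00169). Foxf1 (3.87 ± 1.25, adjusted p = 0.0421) was higher, a call lost without CaPS-R EB day 0 replicate 2 or 3, or CaPS-R EB day 10 replicate 1 or 3 (adjusted p between 0.0955 and 0.124). Foxc2 (3.94 ± 1.18, adjusted p = 0.0305) was higher too, and lost its call without CaPS-R EB day 0 replicate 1 or 2, or CaPS-R EB day 10 replicate 2 or 3 (adjusted p between 0.0608 and 0.103). Foxd3 was at 11.5, 7.76 and 11.4 CPM on day 0, 11.8, 23.9 and 22.1 CPM on day 6 and 8.38, 12 and 13.4 CPM on day 10 and did not pass (0.14 ± 0.31, adjusted p = 0.787), where the summed pluripotent cell markers on day 10 were 1338 to 1497 CPM. The EB count was 11 without CaPS-R EB day 10 replicate 3.

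Several members lie next to each other in the genome (mm10). Foxf1, Foxc2 and Foxl1 span 46.3 kb of chromosome 8, with gaps of 28.0 and 8.8 kb. Foxq1, Foxf2 and Foxc1 span 252.5 kb of chromosome 13, and Foxd2 and Foxe3 span 19.7 kb of chromosome 4. All 3 members of the first group were higher on day 8 than on day 0 in WT NPC and on day 10 than on day 0 in WT EB, and Foxf1 and Foxc2 were higher in mCaPS than in WT on NPC day 8. In the second group all 3 were higher on EB day 10. Foxj2, Foxm1 and Foxp3 share exon bases with another gene, and the strand setting of the counting is not given in the sources used here, so their counts may hold reads of the neighbour.

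Genes linked to the family were counted from lists of partners, pathway genes and cell type genes. The list for FOXA2 also holds endoderm products such as Afp, Apoa1 and Ttr. In WT NPC on day 8 over day 0, 27.5% of all genes were higher and 24.9% lower. Of 12 Nodal pathway genes, which work through FOXH1, 6 were higher and 4 lower. Among the 4 lower were the co-receptor Tdgf1 at -7.99 and the inhibitor Lefty2 at -7.57 on the log2 scale. The 6 higher are not named here. Of 13 genes listed with FOXA2, 7 were higher, among them Afp at 5.22, and 2 lower, among them T at -7.08. Of 14 neural regulators 8 were higher and 2 lower, led by Pax7 at 8.03 and Pax2 at 7.27. Of 14 mitotic genes controlled by FOXM1, 1 was higher and 6 lower. In WT EB on day 10 over day 0, 14.7% of all genes were higher and 14.5% lower. Of 14 genes of the FOXA2 list 13 were higher and 0 lower, with Ttr at 8.31 and Shh at 7.93. Of 14 mesoderm regulators 11 were higher and 1 lower, with Hand1 at 7.53 and Kdr at 5.76.

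In mCaPS against WT on NPC day 8, where 9.39% of all genes were higher and 9.06% lower, 8 of 13 mesoderm regulators were higher and 1 lower, with the heart genes Hand2 at 5.62 and Hand1 at 5.42 on the log2 scale. Of 13 genes of the FOXA2 list, 4 were higher and 0 lower: Apoa1 at 5.32, Gata6 at 3.95, Gata4 at 3.79 and Ttr at 3.59. Of 14 neural regulators 2 were lower, a share near that of all genes, Pax2 at -4.47 and Pax7 at -4.16, and of 13 cilia genes controlled by FOXJ1 5 were lower, led by Dnah9 at -2.80. The median log2 fold change was 2.54 for the mesoderm list, 2.40 for the FOXA2 list and -1.41 for the neural list, and 0 over all genes. Against WT on the same day, the median of the mesoderm list was 1.72 in CaPS and 0.44 in KO, that of the FOXA2 list 0.84 in CaPS and -0.25 in KO, and that of the neural list -0.66 in CaPS and -0.38 in KO, each on the log2 scale.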

How the data were processed

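RNA-seq counts per gene were deposited by the authors as raw whole-number counts with exon lengths. Per the submitters' processing notes, the genome was mm10 and the tools included HOMER 4.10.4, edgeR, featureCounts 1.6.3, the aligner STAR 2.7.0 and, for trimming, cutadapt 1.14. Libraries were rRNA-depleted and directional, per the labels' protocols, and the strand setting of the counting is not given in the sources used here. From these counts, edgeR 4.0.16 (R 4.3.3) fitted quasi-likelihood models with TMM scaling, filterByExpr and robust estimation, 1 fit per culture over its 36 libraries, 1 per CaPS-R table and 1 over the 18 WT libraries of both cultures, with Benjamini-Hochberg adjustment over all genes. CPM are counts over the TMM-scaled library size. A gene passed at adjusted p below 0.05. A library with 0 counts was given a floor of 3 counts for lower bounds, which cover counting error only.

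The family and the role, partner and marker lists were chosen with earlier results of these data known. In each comparison all members that passed were named where these were 10 or fewer, otherwise the 10 with the largest change at 1 CPM or more; further members were named by role, and 1 member's own values are not reported here. Left out were gene names that read as dates, 23 for EB and 22 in each file of CaPS-R, as well as 1 incomplete last line in each CaPS-R table and 9 columns matched to no sample. Replicate numbers were taken to pair 2 groups where every same-numbered pair of deviations correlated above 0.1. This held for CaPS against WT in EB and NPC on each day, and over time for WT, CaPS and KO EB. Alternatives were RLE scaling, no filter on low counts, Rn45s left out, the compared groups only, the replicate block, DESeq2 1.42.0, each library left out and, in EB, the 6 libraries numbered 1 of WT and CaPS left out. Results of the alternatives were kept for the members only, so their counts stand without a share of all genes. The scripts were tested on simulated data.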

Additional observations from a re-analysis of the deposited data

Results flagged for a closer look

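The difference between 2 cultures or 2 lines in the same change was tested directly, and 16 forkhead results passed. For the change of WT from day 0 to day 6, NPC minus EB on the log2 scale, they were Foxd3 (-6.92), Foxi3 (-6.55), Foxj1 (-3.68), Foxr2 (-3.42), Foxh1 (-2.72), Foxd1 (3.71), Foxc2 (4.77), Foxd2 (4.99), Foxl2 (5.23) and Foxf1 (5.95), and Foxl1, which had no count in WT EB day 6, by its adjusted p of 0.0184. For the change from day 0 to day 8 in NPC, mCaPS minus WT, they were Foxl2 (-3.50), Foxp4 (1.93), Foxa3 (2.99), Foxa2 (3.64) and Foxc2 (4.40).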

How the results depend on the processing

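Counts of members that passed stayed within 1.5 times of the value reported in 41 of 41 comparisons with Rn45s left out, 40 of 41 with RLE scaling, 40 of 41 with no filter on low counts, 33 of 41 with the compared groups only, 32 of 41 with the replicate block and 31 of 41 with DESeq2. Many of the 41 comparisons, most of them between lines, had 0 members in the main fit, and 0 again was taken as unchanged. Over all called members and alternatives, 3045 results kept their call, 481 lost it and 0 changed sign. The causes were not tested.

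By setting, the counts that moved were as follows. RLE scaling and no filter each gave 0 members in mCaPS against WT on NPC day 6. With the compared groups only, the count was 2 in WT EB day 6 over day 0, 10 in CaPS EB day 10 over day 0, 1 in mCaPS against WT on EB day 0, 1 in the mCaPS EB difference in change, 1 in KO against WT on EB day 6, 4 in WT NPC day 8 over day 6, 5 in mCaPS against WT on NPC day 6 and 1 in KO against WT on NPC day 0. With the replicate block it was 8 in WT EB day 6 over day 0, 1 in mCaPS against WT on EB day 0, 11 in CaPS-R EB day 10 over day 0, 7 in WT NPC day 8 over day 6, 3 in CaPS against WT on NPC day 0, 5 and 6 in mCaPS against WT on NPC days 6 and 8, 0 in KO against WT on NPC day 0 and 6 in the difference between the cultures, where Foxc2 was lost (adjusted p = 0.0583). Where numbers pair the samples, the block changed no other count by over 1.5 times. Elsewhere the numbers did not meet the rule for pairing or were not checked against it. In WT NPC day 8 over day 6 the correlations were 0.396, 0.077 and 0.337. With DESeq2 it was 1 in CaPS against WT on EB day 6, 2 and 1 in mCaPS against WT on EB days 0 and 10, 1 in the mCaPS EB difference in change, 5 in WT NPC day 8 over day 6, 1 and 2 in CaPS against WT on NPC days 6 and 8, 2 and 4 in mCaPS against WT on NPC days 0 and 6 and 1 in CaPS against mCaPS on NPC day 8. Without the 6 EB libraries numbered 1 it was 1 in mCaPS (Foxd3) and 1 in KO against WT on EB day 10.

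Leaving out 1 library at a time gave these lowest and highest counts. Over time in EB they were 1 and 7 for WT day 6 over day 0, 9 and 14 for WT day 10 over day 6, 15 and 19 for WT day 10 over day 0, 9 and 16 for CaPS, 13 and 16 for mCaPS, 9 and 16 for KO and 11 and 17 for CaPS-R. In NPC they were 19 and 22 for WT day 6 over day 0, 2 and 2 for WT day 8 over day 6, 20 and 25 for WT day 8 over day 0, 23 and 25 for CaPS, 25 and 27 for mCaPS, 18 and 24 for KO and 14 and 16 for CaPS-R. Against WT in EB they were 0 and 1 for mCaPS on day 0 (1 without mCaPS EB day 0 replicate 2), 0 and 1 for mCaPS on day 10 (1 without WT EB day 10 replicate 1) and 0 and 2 for KO on day 10 (2 without KO EB day 10 replicate 1: Foxb1 and Foxj1). Against WT in NPC they were 0 and 1 for CaPS on day 6 (1 without CaPS NPC day 6 replicate 1: Foxa1), 0 and 5 for CaPS on day 8, 0 and 1 for mCaPS on day 0, 0 and 2 on day 6 and 6 and 14 on day 8 (14 without mCaPS NPC day 8 replicate 2), and 1 and 4 for KO on day 0 (4 without KO NPC day 0 replicate 3). They were 2 and 8 for the mCaPS NPC difference in change, 0 and 1 for CaPS against mCaPS on NPC day 8 (1 without CaPS NPC day 8 replicate 2) and 5 and 10 for the difference between the cultures. Of 282 called member values, 125 moved by over 1.5-fold on leaving out a single library, 96 to a larger change under at least 1 of these and 59 to a smaller one, 33 of them smaller with the call kept. The causes of these moves were not tested.

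Depth limits the low members: Foxb2, Foxi1 and Foxi2 were not tested in either culture, and members under 1 CPM rest on few counts in libraries of as few as 10.6 M counts.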
